A study of Rattus norvegicus with 12 samples.

Results

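A set of 10 genes known for their induction by interferon was followed in cultured rat aortic smooth muscle cells given angiotensin II (Ang II), with Usp18 set apart from the other 9. The genes were Usp18, Isg15, Irf7, Ifit2, Ifit3, Mx1, Mx2, Ifi44, Oas1a and Rsad2, 10 of the 14506 genes measured by a probe set with exactly 1 gene symbol, and each was read from 1 probe set. They were picked by name, with their values at all 3 times of Ang II already known from these arrays, so their differences are given as a description with no test. The question was whether Usp18 moved together with the other 9 genes.

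The cells were vascular smooth muscle cells of the aorta of Sprague-Dawley rats, labelled as differentiated. All were grown in medium with 10% serum and then kept 48 h without it. The treated cells received 100 nM Ang II for 6, 12 or 24 h, and the untreated cells, at a single time, received none. Each of the 4 groups holds 3 arrays (Affymetrix Rat Gene 1.0 ST), 12 in all. Exposure times follow the sample titles and the design text (6, 12 and 24 h), although the treatment protocol lists 1, 3 and 24 h. The titles call the arrays biological replicates without naming animals or cultures, so that a p-value here refers to array-to-array spread, which may be technical. Since untreated cells were sampled at a single time, Ang II and time in culture cannot be told apart.

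Interferons are secreted proteins that cells release on sensing viral nucleic acid. Type I interferon binds the receptor pair Ifnar1 and Ifnar2, whose kinases Jak1 and Tyk2 lead to binding of a complex that holds Stat2 and Irf9 at the interferon-stimulated response element (ISRE) in front of antiviral genes. Interferon gamma acts through Ifngr1 and Ifngr2 and the gamma-activated site (GAS). Usp18 is itself induced by interferon and works against it: the enzyme cuts the ubiquitin-like protein Isg15 from its targets, and it also sits on Ifnar2 and dampens the receptor. In vascular smooth muscle, Ang II is known for contraction and growth through its G protein-coupled receptor.

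The stretches in front of the genes show how these elements are spread among the genes that moved and those that did not. RefSeq promoter sequences of the rat assembly GRCr8 were at hand for 6 of the 10 genes, Irf7, Ifi44, Oas1a, Ifit3, Mx1 and Rsad2. None was at hand for Usp18, Isg15, Ifit2 or Mx2, so the Usp18 promoter could not be searched. The 250 bases before the start are printed 5′ to 3′ on the strand of the gene for Irf7, which was higher at 6 h (the stretch at chr1:205800024-205800273, minus strand), for Ifi44, which was lower at all 3 times (chr2:243303841-243304090, minus strand), for Oas1a, which showed no separation (chr12:41330216-41330465, plus strand), and for Irf8, a gene outside the 10 whose profile was among the most like that of Usp18 (chr19:65699034-65699283, plus strand). Capitals mark the ISRE letters, GAAA and again GAAA with any 2 bases between (TTTC and TTTC where they lie on the other strand), and the GAS letters TTCNNNGAA, which read the same on both strands.
Irf7: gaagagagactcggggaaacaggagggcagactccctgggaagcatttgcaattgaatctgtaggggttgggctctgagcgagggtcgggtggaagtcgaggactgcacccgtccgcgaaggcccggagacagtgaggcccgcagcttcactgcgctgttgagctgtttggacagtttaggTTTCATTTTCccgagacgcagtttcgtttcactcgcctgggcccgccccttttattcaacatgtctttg
Ifi44: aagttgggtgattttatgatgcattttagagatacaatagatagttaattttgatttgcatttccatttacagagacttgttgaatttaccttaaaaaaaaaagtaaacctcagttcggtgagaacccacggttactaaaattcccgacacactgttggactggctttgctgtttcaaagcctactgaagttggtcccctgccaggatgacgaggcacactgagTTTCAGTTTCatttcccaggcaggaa
Oas1a: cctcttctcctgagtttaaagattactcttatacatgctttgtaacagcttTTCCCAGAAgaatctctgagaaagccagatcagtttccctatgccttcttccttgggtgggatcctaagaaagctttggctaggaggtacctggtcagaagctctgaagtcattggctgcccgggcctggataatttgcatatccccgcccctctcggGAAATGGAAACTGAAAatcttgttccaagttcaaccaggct
Irf8: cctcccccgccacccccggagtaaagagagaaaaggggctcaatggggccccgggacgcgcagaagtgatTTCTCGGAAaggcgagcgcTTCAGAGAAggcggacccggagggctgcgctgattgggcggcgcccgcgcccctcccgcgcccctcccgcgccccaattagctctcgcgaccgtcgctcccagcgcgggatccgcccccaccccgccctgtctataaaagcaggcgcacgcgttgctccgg

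The Irf7 promoter had 1 ISRE match, beginning at base -69 from the start. Ifi44 had 1 at -26 and a second at base 27 after the start, beyond the printed stretch. Oas1a had 2 that overlap, at -41 and -35, and a GAS match at -199. Ifit3 had an ISRE match at -44 and Rsad2 at -147, and none of these letters stood in the Mx1 window. In windows of 250 bases before and 50 after the start, 5 of the 6 genes had an ISRE match, against 4.12% of all genes in the table (3.92% of its 33469 promoters, since a gene may have several). A GAS match stood in 1 of the 6, against 9.39% of all genes (8.87% of promoters). Among the genes with a sequence, the ISRE letters thus occurred before Irf7, which was higher at 6 h. They also occurred before Ifi44 and Ifit3, which were lower, and before Oas1a and Rsad2, which showed no separation. Usp18 is not part of this comparison. Irf8 had no ISRE match and GAS matches at -180 and -161. These are matches of letters, and binding was not measured.

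Usp18 stood far above untreated cells after 6 h of Ang II and was back among them at 24 h. Its RMA values, which are log2 intensities, were 5.12, 5.23 and 4.55 in the untreated arrays. They were 8.24, 7.91 and 8.22 at 6 h, 5.93, 6.06 and 6.43 at 12 h, and 5.10, 4.92 and 5.62 at 24 h. Every array at 6 h lay above every array of the other groups, the arrays at 12 h lay between these and the untreated ones, and the arrays at 24 h overlapped the untreated ones. The log2 difference from untreated cells was 3.16 at 6 h, 1.17 at 12 h and 0.24 at 24 h (standard error 0.21 each, from limma's shared model), which are folds of 8.91, 2.25 and 1.18 on the RMA scale. Untreated Usp18 averaged 4.97, below the lowest mean among 18 leukocyte and macrophage markers in the same cells (5.34), and was not shown to lie above background. Were it at background, the folds at 6 and 12 h would be lower bounds. At 24 h Usp18 averaged 5.21, near the untreated level, and the fold there cannot be read in this way. Between times, Usp18 at 12 h was lower than at 6 h by a log2 difference of -1.99, and at 24 h lower than at 12 h by -0.93, with no overlap of arrays in either pair. In bulk RNA such as this, a change in the share of cells that express a gene and a change in RNA per cell cannot be told apart.

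**Figure D1:**
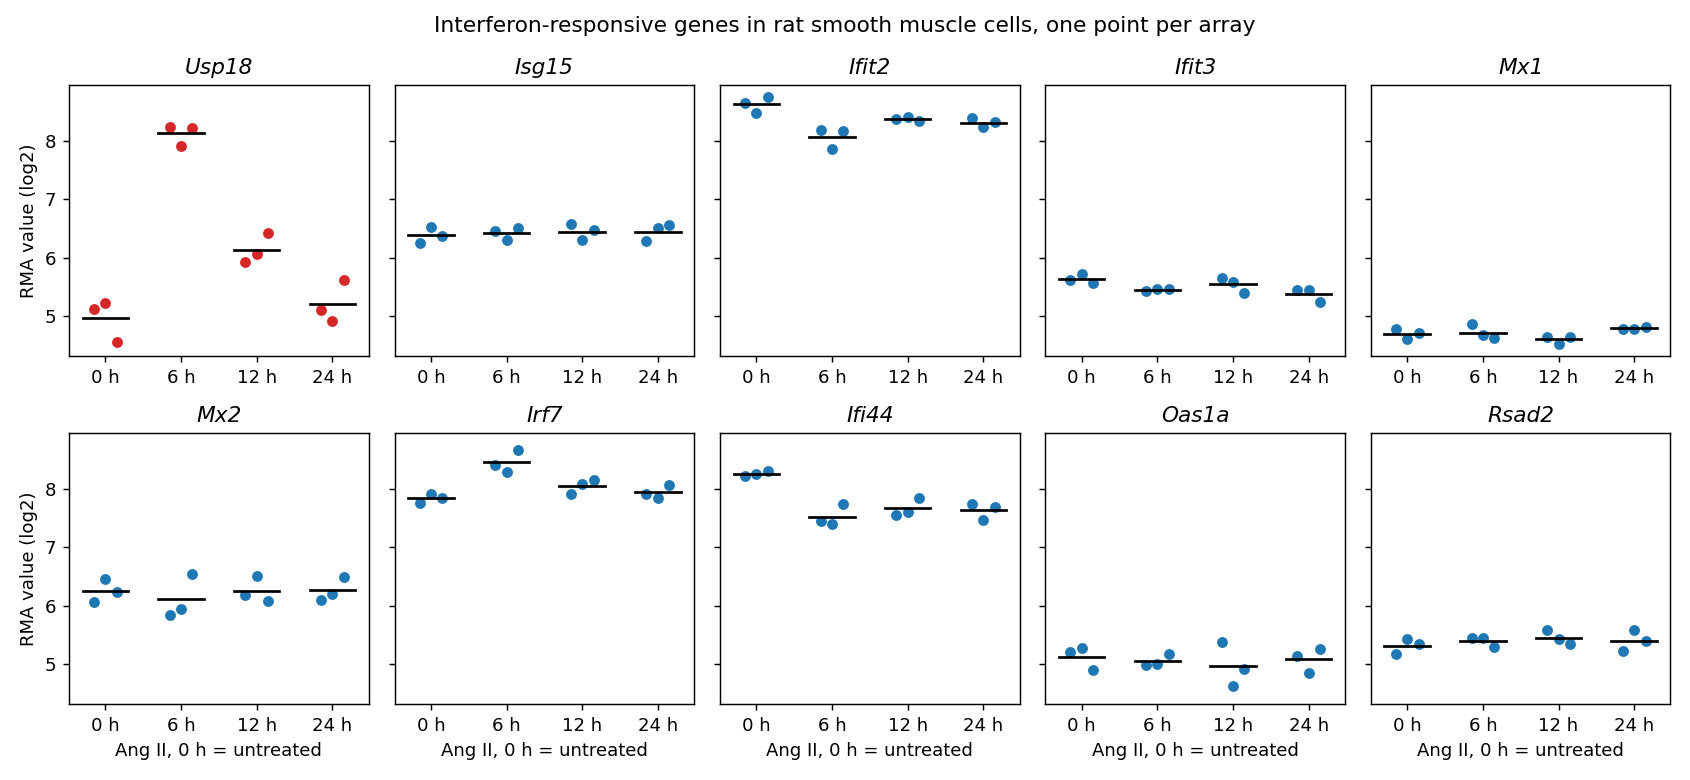
RMA value (log2 intensity) of each of the 10 genes in each of the 12 arrays, for untreated cells (0 h) and cells after 6, 12 and 24 h of Ang II. Points are arrays and black lines group means (n = 3). Usp18 stands at 7.91 to 8.24 at 6 h, Irf7 is higher at 6 h by a smaller step, Ifi44 and Ifit2 are lower, Ifit3 is lower by a small step at 6 and 24 h, and the arrays of the other 5 panels overlap. Heights of different genes also depend on their probes and are not to be compared.

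Of the other 9 genes, Irf7 came nearest to this course, at a smaller size. Irf7 is the transcription factor that amplifies type I interferon production. Its values were 7.76, 7.91 and 7.84 in untreated cells, 8.40, 8.29 and 8.66 at 6 h, 7.91, 8.09 and 8.16 at 12 h, and 7.92, 7.84 and 8.07 at 24 h. All 6 h arrays lay above the untreated ones, the lowest 12 h array exceeded the highest untreated one by less than the second decimal shows, and the 24 h arrays overlapped them. The log2 difference was 0.62 at 6 h, 0.22 at 12 h and 0.11 at 24 h (standard error 0.10), a fold of 1.53 at 6 h. Of the 6 h log2 difference, 35.1% was left at 12 h and 17.1% at 24 h.

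Isg15, the modifier that Usp18 removes from proteins, did not separate from untreated cells at any time. Its values were 6.26, 6.52 and 6.38 in untreated cells, 6.46, 6.31 and 6.51 at 6 h, 6.57, 6.30 and 6.47 at 12 h, and 6.28, 6.51 and 6.56 at 24 h. The log2 differences were 0.04, 0.06 and 0.06 at the 3 times (standard error 0.10), and the arrays overlapped each time.

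The interferon-induced genes Ifi44 and Ifit2 were lower with Ang II at every time. Ifi44 stood at 8.22, 8.25 and 8.31 in untreated cells, 7.45, 7.39 and 7.73 at 6 h, 7.55, 7.60 and 7.85 at 12 h, and 7.74, 7.47 and 7.70 at 24 h. Its log2 differences were -0.73, -0.59 and -0.63 (standard error 0.10), and 85.3% of the 6 h difference was left at 24 h. Unlike Usp18, Ifi44 had thus not come back to the untreated range by 24 h. Ifit2, a tetratricopeptide protein that restrains viral translation, stood at 8.65, 8.48 and 8.74 in untreated cells, 8.18, 7.85 and 8.16 at 6 h, 8.37, 8.42 and 8.34 at 12 h, and 8.38, 8.23 and 8.32 at 24 h. Its log2 differences were -0.56, -0.25 and -0.31 (standard error 0.09). All arrays with Ang II lay below all untreated arrays for both genes. Ifit3, which forms a complex with related Ifit proteins, read 5.63, 5.72 and 5.57 in untreated cells, 5.43, 5.47 and 5.46 at 6 h, 5.65, 5.59 and 5.41 at 12 h, and 5.44, 5.45 and 5.25 at 24 h. It lay below the untreated arrays at 6 and 24 h and overlapped them at 12 h, with log2 differences of -0.18, -0.09 and -0.26 (standard error 0.07).

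The 4 remaining antiviral effectors overlapped untreated cells at all 3 times. Mx1, a dynamin-like GTPase that blocks viruses, read 4.78, 4.62 and 4.71 in untreated cells, 4.87, 4.67 and 4.62 at 6 h, 4.65, 4.53 and 4.65 at 12 h, and 4.78, 4.79 and 4.81 at 24 h. Its paralog Mx2 read 6.07, 6.46 and 6.24 untreated, 5.84, 5.95 and 6.54 at 6 h, 6.18, 6.52 and 6.08 at 12 h, and 6.10, 6.20 and 6.49 at 24 h. No Mx difference from untreated cells exceeded 0.15 in size on the log2 scale (standard errors 0.07 for Mx1 and 0.18 for Mx2). Oas1a, an oligoadenylate synthetase, read 5.21, 5.28 and 4.89 untreated, 4.99, 5.00 and 5.18 at 6 h, 5.38, 4.63 and 4.91 at 12 h, and 5.15, 4.86 and 5.27 at 24 h. Rsad2 (viperin), which makes a chain-ending nucleotide against viral polymerases, read 5.18, 5.43 and 5.35 untreated, 5.45, 5.44 and 5.29 at 6 h, 5.58, 5.43 and 5.34 at 12 h, and 5.24, 5.58 and 5.40 at 24 h. Log2 differences were -0.07, -0.16 and -0.04 for Oas1a (standard error 0.17) and 0.08, 0.13 and 0.09 for Rsad2 (standard error 0.10). Overlap does not show that a level did not change. With standard errors of this size only larger shifts could have been seen.

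**Figure D2:**
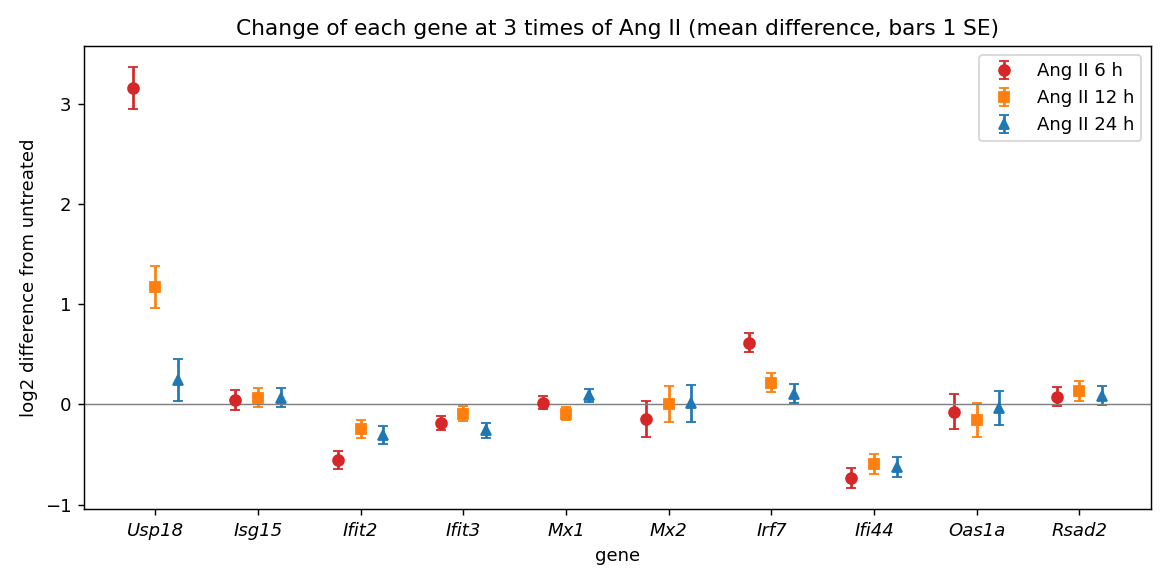
Log2 difference from untreated cells for each of the 10 genes at 6, 12 and 24 h of Ang II, with bars of 1 standard error from limma (3 arrays a group). Usp18 falls away over the 3 times, 3.16, 1.17 and 0.24. Irf7 follows at 0.62, 0.22 and 0.11, and Ifi44 stays below 0 at -0.73, -0.59 and -0.63.

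Across the 9 genes other than Usp18, the median log2 difference was -0.07 at 6 h, -0.09 at 12 h and 0.01 at 24 h, beside 0.01, 0.01 and 0.05 over all genes. The sign of the small median at 24 h turned with the processing (-0.05 after a further quantile normalization). By limma with Benjamini-Hochberg adjustment, 4 of the 10 genes passed 0.05 at 6 h (Usp18 and Irf7 higher, Ifi44 and Ifit2 lower), where 35.8% of all genes passed. At 12 h Usp18 and Ifi44 passed, 2 of 10, with 26.6% of all genes, and at 24 h Ifi44, Ifit2 and Ifit3 passed, 3 of 10, with 30.0%. The arrays of 5, 4 and 3 of the 10 genes did not overlap untreated ones at 6, 12 and 24 h, where 47.2%, 40.8% and 44.8% of all genes did not overlap. These contrasts chose the genes, and the counts are given only for reference. In untreated cells 7 of the 10 genes averaged below the lowest array median (7.22) and 3 (Irf7, Ifit2 and Ifi44) above the highest (7.32), and Usp18 was among the 7. The table holds no detection calls, so it was not determined whether a dim gene was expressed.

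Whether arrays with more Usp18 than their group also had more of another of the 9 genes does not depend on the group contrasts, and was tested on values centred within each group. None of the 9 correlations passed after adjustment over the 9 genes (exact permutation over all arrangements within groups, two-sided, n = 12 arrays). Irf7 had the highest, with Pearson r = 0.62 (exact p = 0.0417, adjusted 0.375) and Spearman rho = 0.61 (exact p = 0.0571, adjusted 0.514). For Isg15, r was 0.31 (exact p = 0.436, adjusted 0.609) and rho 0.27 (exact p = 0.510, adjusted 0.765). The other 7 ranged between -0.46 for Ifit3 and 0.45 for Ifi44 in r, with adjusted exact p of at least 0.609. After median centring of the arrays every r was higher and none passed, with 0.68 for Irf7 (exact p = 0.0278, adjusted 0.25). Isg15, Ifit3, Mx1, Mx2, Oas1a and Rsad2 were dim in untreated cells, as was Usp18. Their low correlations therefore do not show that these genes moved apart from Usp18. Without untreated replicate 3 and 24 h replicate 3, the arrays with the largest Usp18 deviations, r was 0.75 for Irf7 (exact p = 0.0972) and 0.80 for Ifi44 (exact p = 0.0486), with an adjusted p of 0.422 for both. In the same 10 arrays r was -0.71 for Ifit3 (exact p = 0.146, adjusted 0.422), -0.50 for Rsad2 (exact p = 0.188, adjusted 0.422) and 0.15 for Isg15 (exact p = 0.715, adjusted 0.964), and it lay between -0.10 and 0.41 for the other 4.

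**Figure D3:**
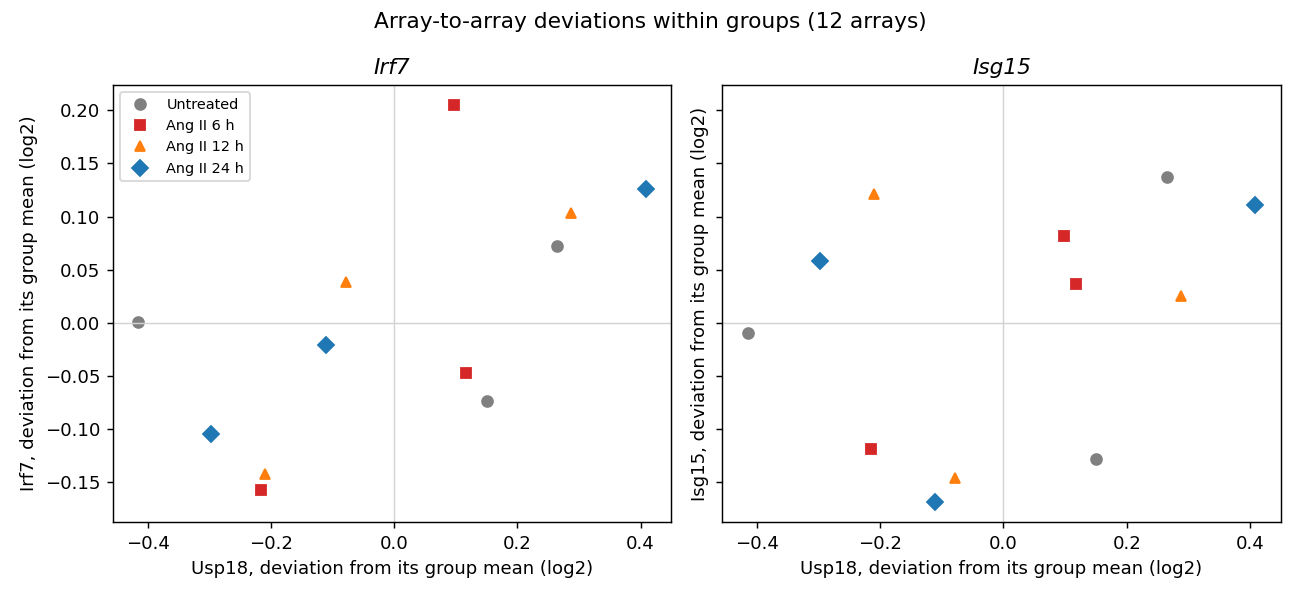
Deviation of Irf7 (left) and Isg15 (right) from the group mean against the deviation of Usp18, in log2 units, with 1 point per array (12 arrays) and a marker for each group. Points for Irf7 lean upward (r = 0.62, adjusted exact permutation p = 0.375) and those for Isg15 are scattered (r = 0.31).

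The interferon pathway around these genes moved in both directions. Lists of further pathway genes by role held 183 entries, some of them older and newer names of the same gene, and 130 genes were measured. With Ang II, 35 rose and 20 fell at 6 h, 25 rose and 18 fell at 12 h, and 23 rose and 23 fell at 24 h (limma, adjusted p under 0.05). Over all genes, the shares that rose were 18.6%, 13.3% and 15.3% at the 3 times and the shares that fell 17.2%, 13.3% and 14.7%. Genes over the whole array thus also moved in both directions. The counts by role below stand beside the same shares, and no list was tested as a set. The median log2 difference of the 130 was 0.03, 0.01 and 0.03, beside 0.01, 0.01 and 0.05 for all genes. Without untreated replicate 2, untreated replicate 3 or 12 h replicate 1, only 10, 11 or 9 pathway genes fell at 12 h, and without untreated replicate 3 only 15 fell at 24 h.

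Among the ligands, 0 of the 5 measured interferon genes rose or fell at 6 or 12 h, and their log2 differences lay between -0.08 and 0.11. Interferon beta (Ifnb1), singled out after its values were seen because it is the usual first signal of the response, differed by 0.11 at 6 h (standard error 0.09, limma adjusted p = 0.413). At 24 h Ifna4 rose by 0.33 on the log2 scale (limma adjusted p = 0.00138). Its means, 6.66 untreated and 6.99 at 24 h, lay below the lowest array median (7.22). It was not shown to lie above background. Of the 4 receptor genes, 3 rose at 6 h, 2 at 12 h and 3 at 24 h, and none fell. Those that rose were Il10rb, Ifngr1 and Ifngr2. The type I receptor genes Ifnar1 and Ifnar2, not both of which were measured, were not among them. Il10rb, a chain shared by the interleukin-10 and interferon lambda receptors, rose by 0.44, 0.58 and 0.82 at 6, 12 and 24 h. The interferon gamma receptor chain Ifngr1 rose by 0.37, 0.32 and 0.29.

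Kinases, STATs and interferon regulatory factors had 7 of 13 members that rose and 2 that fell at 6 h. Irf8, a factor best known from myeloid cells, rose by 1.28 at 6 h (limma adjusted p = 1.31e-08) and by 0.54 at 12 h. Stat3 rose by 0.66, 0.55 and 0.56 over the 3 times and Irf5 by 0.64 at 6 h. Stat2, a part of the complex that binds the ISRE, was among the 7 that rose at 6 h. It was also higher by 0.40 at 12 h and 0.24 at 24 h. Irf2, which competes with activating factors at the element, fell at 6 h with a log2 difference of -0.38. At 12 and at 24 h, 4 of the 13 rose and 3 fell.

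Usp18 belongs by its role to the brakes of the pathway, of which 5 of 13 further ones rose and 2 fell at 6 h. Ptpn1, a phosphatase that acts on Jak2 and Tyk2, rose by 1.09 (limma adjusted p = 1.35e-07), Socs3, an inhibitor of JAK kinases, by 0.45, and Ptpn2, a phosphatase of Jak1, by 0.34. Pias1, a SUMO ligase, fell with a log2 difference of -0.24. At 12 h 1 of the 13 rose (Ptpn11, 0.18) and at 24 h 1 rose (Pias3, 0.19), and none fell at either time (0 of 13 by limma).

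Enzymes other than Usp18 that attach and remove Isg15 moved by at most 0.32 in size on the log2 scale where they passed. Trim25, an Isg15 ligase that also ubiquitinates the RNA sensor RIG-I, rose by 0.27 at 6 h and fell at 12 h (-0.28) and 24 h (-0.32). Ube2l6, the conjugating enzyme for Isg15, fell at 24 h (-0.29, limma adjusted p = 0.000889). Of the 8 genes, 2 rose and 1 fell at 6 h, and 4 fell at 12 h and 4 at 24 h with 0 that rose. Usp5, Usp16 and Usp21 of this list are counted again among the ubiquitin-specific proteases.

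Among 48 other interferon-induced effectors, 10 rose and 7 fell at 6 h, 9 rose and 5 fell at 12 h, and 6 rose and 8 fell at 24 h. At 6 h the largest rises were those of Slfn2 (0.95), Samd9l (0.88) and Slfn4 (0.74), members of the Schlafen and SAMD9 families. Cmpk2, a mitochondrial nucleotide kinase encoded beside Rsad2, fell (-0.58, limma adjusted p = 0.000264). Samd9l was still higher than in untreated cells at 12 h (0.83), as was Ifitm3 (0.79), a membrane protein that blocks viral entry. Ifitm3 was also higher at 6 h, by less than the largest rises named, and at 24 h (0.46). Lgals9, a galectin, fell at 24 h (-0.80). Of the 4 measured GTPases of the GBP and IRG families, Gbp5 fell most: its log2 difference was -1.71 at 6 h (limma adjusted p = 5.25e-10), -0.87 at 12 h and -0.20 at 24 h, where the call was lost under 3 of 21 alternatives. Gbp5 had thus the largest log2 difference downward of the 130 genes at 6 h.

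Of 16 nucleic acid sensing genes, 3 rose and 4 fell at 6 h, where 18.6% of all genes rose and 17.2% fell. Myd88, the adaptor of Toll-like receptors, rose by 0.55 and the DNA exonuclease Trex1 by 0.51 at 6 h. Tlr3, a sensor of double-stranded RNA, rose by 0.41 at 12 h and 0.62 at 24 h. Tlr4, on the list as a Toll-like receptor though not itself a nucleic acid sensor, fell at 6 h (-0.36) and 24 h (-0.70). Mavs, the mitochondrial adaptor of the RNA sensors, fell at 6 h (-0.30) and 12 h (-0.41). Of 19 genes of MHC class I presentation, 4 rose and 2 fell at 6 h, 5 rose and 1 fell at 12 h, and 4 rose and 4 fell at 24 h. The immunoproteasome subunit Psmb10 rose by 0.37 at 12 h and 0.83 at 24 h. The class I gene RT1-S3, which has close relatives in its family, rose by 0.61 at 6 h and 0.60 at 12 h. Other genes of the same kinds fell. Psmb9 fell at 6 h (-0.27, lost under 1 of 21 alternatives) and 24 h (-0.22, lost under 7 of 21). Psme1 fell at 24 h (-0.36). RT1-M3-1 fell at 6 h (-0.29, lost under 5 of 20) and 12 h (-0.33, lost under 4 of 20), and RT1-N3 at 24 h (-0.20, lost under 5 of 21).

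**Figure D4:**
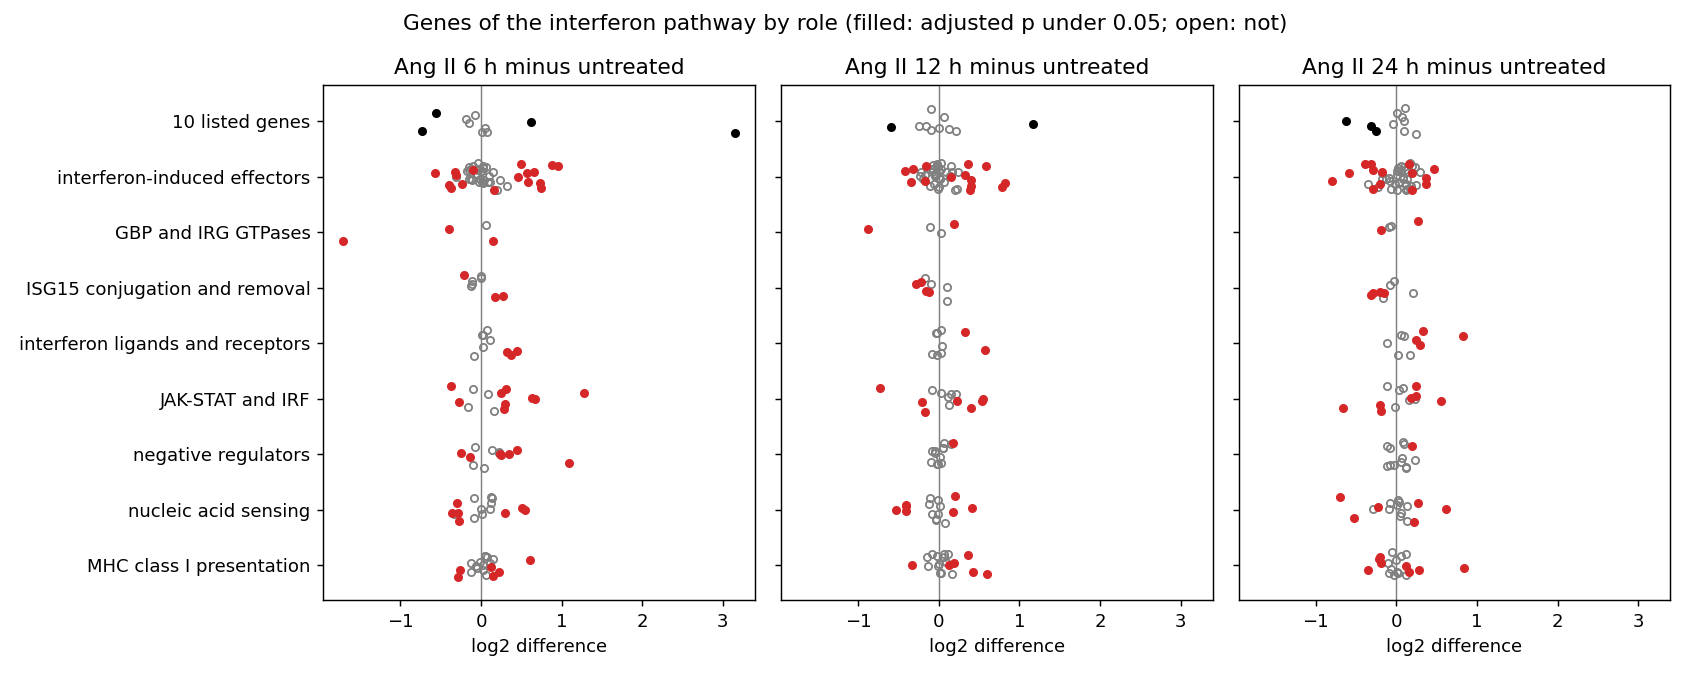
Log2 difference from untreated cells of the 10 genes (top row) and of 130 further interferon pathway genes by role, at 6, 12 and 24 h of Ang II. Filled points have a limma adjusted p under 0.05, open points do not, and black marks the 10 genes. Usp18 lies to the right of all others at 6 h (3.16), and Gbp5 to the left (-1.71).

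The ISRE letters were found in the promoters of 37 of 110 pathway genes in the promoter table (33.6%), against 1131 of 27457 genes in all (4.12%). At 6 h they stood before 8 of 32 genes that rose (25.0%), 4 of 17 that fell (23.5%) and 25 of 61 that did not pass (41.0%). At 12 h the counts were 12 of 23 that rose (52.2%), 3 of 15 that fell (20.0%) and 22 of 72 that did not pass (30.6%), and at 24 h they were 9 of 22 (40.9%), 8 of 21 (38.1%) and 20 of 67 (29.9%). GAS letters stood before 20 of the 110 (18.2%), against 9.39% of all genes.

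Of the 5 genes with a large change whose levels over the 12 arrays were most like those of Usp18, 1 was on the interferon pathway lists. Among the 407 genes with a largest change of at least 1 on the log2 scale, the highest Pearson correlations were those of Krt18, an intermediate filament keratin (r = 0.981), Hivep2, a zinc finger transcription factor (0.979), Nabp1, a single-stranded DNA binding protein (0.979), Npl, a sialic acid lyase (0.978), and Irf8 (0.977). Among all 14505 genes they ranked 5, 7, 9, 11 and 13. The log2 differences at 6 h were 1.49 for Krt18, 1.27 for Hivep2, 2.10 for Nabp1, 1.05 for Npl and 1.28 for Irf8. All 5 lay between 0.32 and 0.55 at 12 h and between -0.09 and 0.08 at 24 h. None of the 5 promoters held the ISRE letters, which 4.12% of all genes have. The GAS letters stood in 1 of the 5, against 9.39% of all genes. With 5 genes, nothing is read from these counts. The correlation with Usp18 was 0.94 for Irf7 (rank 170 of 14505 genes), 0.12 for Isg15, 0.07 for Rsad2, -0.04 for Oas1a, -0.09 for Mx1, -0.22 for Mx2, -0.28 for Ifit3, -0.56 for Ifi44 and -0.76 for Ifit2. The arrays share their groups, so these values describe the shape of the profiles and carry no p.

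**Figure D5:**
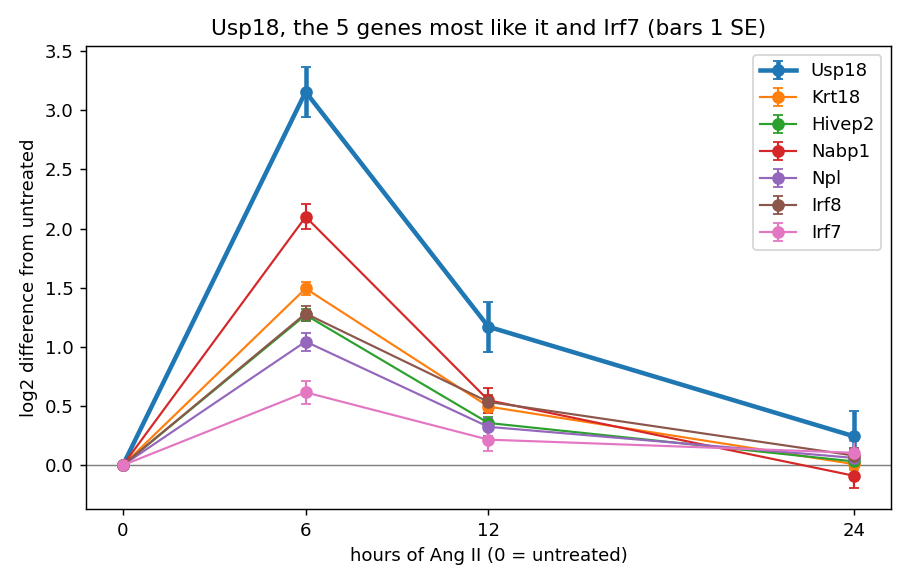
Log2 difference from untreated cells (0 h) at 6, 12 and 24 h of Ang II for Usp18, for the 5 genes most like it over the 12 arrays among those with a largest change of at least 1, and for Irf7. Bars are 1 standard error from limma. All 7 profiles are highest at 6 h, from 3.16 for Usp18 to 0.62 for Irf7, and lie between -0.09 and 0.24 at 24 h.

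Usp18 is a ubiquitin-specific protease by sequence, and other members of that enzyme family were counted in the same way. Of 38 other family members measured, 9 rose and 9 fell at 6 h, 4 rose and 8 fell at 12 h, and 3 rose and 5 fell at 24 h. Beside these counts, 18.6%, 13.3% and 15.3% of all genes rose and 17.2%, 13.3% and 14.7% fell. At 6 h the largest rise was that of Usp13 (0.47) and the largest fall that of Usp49 (-0.74), followed by Usp9x (-0.67). At 12 h, 5 fell without untreated replicate 1.

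The neighbours of Usp18 on chromosome 4, in the gene order of GRCr8, were also followed. Pex26, a peroxisome assembly factor, rose by 0.38, 0.51 and 0.41 at 6, 12 and 24 h (limma adjusted p = 8.78e-05, 1.41e-05 and 7.4e-05). Tuba8, a tubulin on the same side, did not pass at 6 h (0.21, limma adjusted p = 0.0525), and Mical3, the third on that side, differed by 0.00 at 6 h (limma adjusted p = 0.991). Mical3 rose by 0.16 at 12 h (limma adjusted p = 0.0393, lost under 12 of 21 alternatives) and by 0.23 at 24 h (limma adjusted p = 0.00549). On the other side A2m, a protease inhibitor, rose by 0.21 at 6 h (limma adjusted p = 0.0265, lost under 6 of 20 alternatives), while Slc6a13 (0.20, adjusted p = 0.103) and Iqsec3 (0.07, adjusted p = 0.663) did not pass with limma.

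Markers of cell type were read beside these results. Smooth muscle markers averaged 12.4 to 12.8 per array, and 11 of 12 rose at 24 h, where Usp18 was back among untreated values. Of 18 leukocyte and macrophage markers, 0 rose or fell at 6 or 12 h, and 1 rose and 1 fell at 24 h, with an average per array of 6.09 to 6.21. Endothelial markers averaged 6.53 to 6.73 per array. Of 12, 1 rose and 2 fell at 6 h, 2 rose and 2 fell at 12 h, and 3 rose and 1 fell at 24 h. Fibroblast markers, which cultured smooth muscle cells also express in part, averaged 9.53 to 9.89. Of 11, 5 fell at 6 h, 6 at 12 h and 6 at 24 h, where 1 rose. Over all genes, 18.6%, 13.3% and 15.3% rose and 17.2%, 13.3% and 14.7% fell at 6, 12 and 24 h. The part of these cell types in the results was not tested. Array medians were 7.22 to 7.32 and standard deviations of the log2 values 2.31 to 2.36. With the most narrowly spread array of every Ang II group left out, the Usp18 differences were 3.26, 1.28 and 0.39.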

How the data were processed

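The log2 intensities analysed were deposited by the authors, and the submitters' processing notes name RMA and Partek as tools. Versions and settings are not given in the labels or the table. The 12 arrays were grouped by their titles. Of 29214 probe sets, 15310 had 1 gene symbol, 323 had several and 13581 are unnamed here. Where a gene had several probe sets (527 genes), the one with the highest mean was kept, which gave 14506 genes, 14481 of them matched to RefSeq by gene identifier.

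The 4 group means were fitted to all arrays with limma 3.58.1 (R 4.3.3, 8 residual and 3.37 prior degrees of freedom), and p-values were adjusted by Benjamini-Hochberg over all genes at 0.05. The fit was checked on simulated data. No filter on dim genes was applied, and arrays have no read depth, so that their number limits the precision. Correlations within groups used exact permutation in Python 3.11.15. Motifs were searched in RefSeq promoters of GRCr8.

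The 10 genes, the gene lists and the tests were chosen with earlier results of these data known. All 10 genes are named. For each list and time up to 3 passing genes in each direction could be named, besides the 5 genes most like Usp18 and 3 neighbours on each side. Numbers in the titles were checked for pairing: arrays with the same number deviated from their group means with correlations of -0.10 to 0.30 (median 0.03). Arrays of different groups with different numbers had -0.28 to 0.26 (median -0.02). The arrays were analysed as unpaired, although such a check cannot exclude a pairing that the labels do not name.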

Additional observations from a re-analysis of the deposited data

Results flagged for a closer look

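Among the named pathway genes and proteases, those that passed against untreated cells at each of 2 times with opposite signs were singled out. Their difference between these times had to pass as well (limma, adjusted over all genes). The genes were picked by these same contrasts, and opposite signs make the difference between the times large. The adjusted p-values below therefore describe the genes picked and are no separate evidence. Slfn4, a Schlafen gene, was higher than in untreated cells at 6 h by 0.74 and lower at 24 h (-0.59), a difference between the times of -1.33 (adjusted p = 5.03e-09). At 12 h it stood at -0.17, with a difference from 6 h of -0.91 (adjusted p = 2.93e-07). Trim25, the Isg15 ligase, stood at 0.27 at 6 h, -0.28 at 12 h and -0.32 at 24 h, and its differences from 6 h were -0.55 at 12 h (adjusted p = 1.66e-05) and -0.59 at 24 h (adjusted p = 4.28e-06). Lgals9 differed between 24 h and 12 h by -0.96 (adjusted p = 1.94e-08). Irf3, the factor that first switches on interferon beta, dipped at 12 h: its difference at 12 h was -0.41 from 6 h (adjusted p = 7.05e-05) and at 24 h it was higher than at 12 h by 0.41 (adjusted p = 8.25e-05). Pias3 differed between 24 h and 6 h by 0.32 (adjusted p = 0.000138) and Usp16 between 12 h and 6 h by -0.33 (adjusted p = 0.00027).

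Some of the calls against untreated cells behind these pairs were lost under other processing: at 12 h those of Slfn4 (8 of 21 alternatives), Irf3 (6 of 21), Usp16 (10 of 21) and Lgals9 (1 of 21), and at 6 h that of Pias3 (13 of 21). Of the 10 interferon-responsive genes, Mx1 had all 3 arrays below the untreated mean at 12 h and all 3 above it at 24 h, a difference of 0.18 between the times that was not tested.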

How the results depend on the processing

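Of 21 alternatives, none that tested Usp18 turned its direction, and its log2 difference stayed between 2.95 and 3.29 at 6 h, 0.96 and 1.30 at 12 h and 0.04 and 0.39 at 24 h when 1 array was left out. With only genes whose mean over 12 arrays exceeds the median gene (8.00, higher than the array medians over all probe sets), 2, 1 and 1 of the 10 genes passed at 6, 12 and 24 h, because only Irf7 and Ifit2 of the 10 are then tested. Without the most narrowly spread array of each Ang II group, 4 of the 10 passed at 12 h, and 10 pathway genes fell there. Leaving out 1 array at a time gave 9 to 19 pathway genes that fell at 12 h, 15 to 23 that fell at 24 h and 1 to 3 of the 10 genes that passed at 24 h (1 without 24 h replicate 3). Alternatives for the protease counts were added after seeing the data. They gave 5 to 8 proteases that fell at 12 h with 1 array left out, and at 24 h 6 that rose among genes above the median level, 6 after quantile normalization and 5 with a trended and robust variance. The other counts stayed within 1.5 times, and the cause of these shifts was not tested.

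The replicate number as a block left 5, 3 and 3 of the 10 genes passing at 6, 12 and 24 h and 34, 23 and 23 pathway genes that rose. The labels do not say whether the numbers pair the arrays. Of 158 calls on single genes outside the 10, 119 held under all alternatives that tested them.

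The 3 arrays a group, the lack of detection calls, 1 probe set a gene and untreated cells at a single time limit what can be read from small differences.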
